A study of Mus musculus with 6 samples.

Results

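The cytochrome P450 genes outside the *Cyp2c* subfamily were taken as a group. Members were the protein-coding genes whose symbol reads Cyp, a family number, a letter and a second number, with every *Cyp2c* gene and *Cyp51* left out. This rule found 78 genes in 16 families among the 52550 genes listed. Family 2 held 33 of them, family 4 held 17 and family 3 held 7, and the other 13 families held 1 to 3 genes each. A further 15 genes belonged to *Cyp2c*, and 6 protein-coding P450 genes beside *Cyp51* (*Cyp2ab1*, *Cyp3a41a*, *Cyp3a41b*, *Cyp4a12a*, *Cyp4a12b* and *Cyp4a30b*) had symbols that the rule does not take. The rule used no measured value.

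RNA-seq had been made from colonic epithelium of male C57BL/6 mice, with 3 samples of the *Zfp90* fl/fl genotype and 3 of the *Zfp90* ΔIEC genotype. In both genotypes exon 4 and the 3′ UTR of *Zfp90*, a zinc finger gene, lie between loxP sites, and the *Zfp90* ΔIEC mice also carry Villin-cre, which acts in the intestinal epithelium. The *Zfp90* fl/fl mice were their littermates, kept in separate cages after weaning, and the effects of cage and of genotype cannot be told apart. All mice, aged 6 to 8 weeks per the labels, had received the carcinogen azoxymethane (AOM, 10 mg/kg) and, starting 5 days later, 3 cycles of 7 days of dextran sulfate sodium (DSS, 2% in the labels) in drinking water and 14 days of plain water, until day 80. The methods of the study give another DSS percentage and an age at the upper end of this range. Mice without AOM-DSS were not analysed here, so every level below is a level after this treatment. Epithelial cells had been freed with EDTA and DTT, without a sort. Neither the labels nor the methods say whether a sample was 1 mouse, and p-values measure the spread between these samples. In 2 of the *Zfp90* ΔIEC samples the genotype label carries another gene number, and their group was taken from the sample titles.

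Cytochrome P450 enzymes hold a haem group and insert 1 oxygen atom into fatty acids, sterols, retinoids, vitamin D, drugs and carcinogens. Families with low numbers mostly handle foreign compounds and fatty acids, while families with higher numbers mostly handle sterols, steroid hormones and vitamins. Microsomal P450s take electrons from the reductase Por, and mitochondrial ones from ferredoxin. Many P450 genes are switched on by ligand-bound receptors such as Ahr, the pregnane X receptor and Ppara, and the gut wall is, after the liver, a main site of their expression.

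The letters before the start of 5 of the genes described below are shown. *Cyp4b1* was chosen because it differed between the genotypes, and *Cyp2w1* because it had the largest negative log2 fold change. The 6 *Cyp2d* genes highest in the same sample of each genotype were searched, and *Cyp2d9*, *Cyp2d10* and *Cyp2d26* gave a window. Each window has 30 bases of the gene's own strand, from the RefSeq promoter table of build GRCm38.p6, with the letters TATAA, the core of a TATA box, in capitals. The windows lie at chr4:115647733-115647762 (minus strand, *Cyp4b1*), chr5:139352574-139352603 (plus, *Cyp2w1*), chr15:82407206-82407235 (minus, *Cyp2d10*), chr15:82452339-82452368 (plus, *Cyp2d9*) and chr15:82794257-82794286 (minus, *Cyp2d26*).
Cyp4b1: ccgtatccagagTATAAgacaatccagagg
Cyp2w1: ggggaggatggcTATAAggcagagggctca
Cyp2d10: ctggcactccttTATAAggcagcaggatcc
Cyp2d9: ctggcactccttTATAAggtgacaggatcc
Cyp2d26: ctcctccctcttTATAAgggaccaggttcc
The capitals sit 29 to 25 bases before the annotated start in *Cyp4b1*, *Cyp2d10* and *Cyp2d26*, 30 to 26 bases before it in *Cyp2w1* and 26 to 22 bases before it in *Cyp2d9*. In the *Cyp2d* genes shown a T precedes the capitals, so that the same place also matches on the other strand. *Cyp2d34*, *Cyp2d12* and *Cyp2d22* gave no window, because they either lacked these letters or had no entry in the promoter table. The *Cyp2d9* and *Cyp2d10* windows shared 27 of 30 bases, *Cyp2d26* shared 20 with *Cyp2d9* and 21 with *Cyp2d10*, and the *Cyp4b1* window shared 10 or 11 bases with any of the other windows.

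Over the 250 bases before the start, TATAA or its reverse complement TTATA was found in 29 of the 59 P450 genes with an entry (49.2%) and in 22.8% of 32851 promoters. The letters GCGTG or CACGC, the core of the element that Ahr binds, were found in 13 of the 59 (22.0%) and in 28.2% of all promoters. A P450 gene was counted if any of its entries matched, while the share of all promoters counts each entry. The shares are therefore in unlike units, and a gene with several entries has more places to match. *Cyp2w1* (chr5:139352554-139352583, 50 to 46 bases before the start, on the reverse strand) and *Cyp4v3* (chr8:45333164-45333193, minus strand, 16 to 12 bases before the start) held this core, here in capitals and on the gene's own strand.
Cyp2w1, Ahr core: gtggggtgccggCACGCcctggggaggatg
Cyp4v3, Ahr core: agtttgtccccaggGCGTGgtgcagacgct
A match of these letters is a description of the window, and binding was not measured. No match to either set of letters was found for *Cyp2f2*, which either lacked them in its 250 bases or had no entry.

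The files give an FPKM for each gene (fragments per kilobase per M), which is a level per length and can be set side by side between genes. Steps in the lowest values put the depth at 25.9 to 28.5 M fragments per sample, and fragment numbers below are estimates from that depth and the transcript's length. *Zfp90* was at 0.630, 0.490 and 0.569 FPKM in *Zfp90* fl/fl samples 1, 2 and 3. The *Zfp90* ΔIEC samples were lower, at 0.0846, 0.195 and 0.166 FPKM. Of 14 markers of colon epithelium, 13 passed the filter on low values explained below, with *Krt8* at 2635 FPKM or more in every sample. Markers of neutrophils, macrophages, and B and plasma cells were low and had sums that did not overlap between genotypes. The summed FPKM of 7 neutrophil genes was 1.23 to 2.47 in *Zfp90* fl/fl and 0 to 0.0300 in *Zfp90* ΔIEC samples. Of the 7, 5 had a lower mean in *Zfp90* ΔIEC samples, with *S100a8*, *S100a9* and *Cxcr2* listed at 0 in all 3. *Mpo* (0.00379 against 0.00401 FPKM) and *Elane* (0 against 0.00853 FPKM) had a higher mean, near 0 in both genotypes. The sum of 8 macrophage genes was 7.10 to 9.88 against 3.16 to 4.54, and that of 5 B and plasma cell genes 0.591 to 0.939 against 0.123 to 0.213. The 4 endothelial genes summed to 0.347 to 0.488 against 0.518 to 0.603. Of these, 3 had a lower mean in *Zfp90* ΔIEC samples, while *Pecam1* had a higher one (0.257 against 0.458 FPKM). The sums of the lists for T cells, mast cells, fibroblasts, smooth muscle and hepatocytes overlapped. The sum of the 14 epithelial markers was 10700 to 13170 against 13647 to 17465. *Car1*, the highest single gene in every sample, was at 4033 to 5628 against 6349 to 10059 FPKM. Of the 14 markers, 4 had a lower mean in *Zfp90* ΔIEC samples: *Epcam*, *Krt8*, *Krt19* and *Cdh1*, all with overlap. The part of these cell types in the differences below was not tested. In bulk samples fewer cells of a type and less RNA per cell cannot be told apart.

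Most P450 genes were scarcely detected in this epithelium. Of the 78, 23 were listed at 0 in all 6 samples, 26 had a mean above 0 and under 0.1 FPKM, 8 had a mean from 0.109 to 0.834 FPKM, and 21 had a mean of at least 1 FPKM. The genes at 0 included liver and steroid-gland enzymes: *Cyp7a1*, which starts bile acid synthesis, *Cyp1a2*, *Cyp11b1* and *Cyp11b2*, which finish corticosteroids, and *Cyp19a1*, the aromatase. The others at 0 were *Cyp26a1*, *Cyp2a4*, *Cyp2b9*, *Cyp2b13*, *Cyp2b19*, *Cyp2b23*, *Cyp2d40*, *Cyp2j5*, *Cyp2j7*, *Cyp2j11*, *Cyp2j12*, *Cyp2j13*, *Cyp3a16*, *Cyp3a57*, *Cyp4a14*, *Cyp4a29*, *Cyp4a31* and *Cyp4a32*. A value of 0 cannot be told from a low one at this depth. Among genes with a mean under 0.1 FPKM, the highest value in any sample was 0.180 FPKM (*Cyp4f18*, about 8.6 fragments), and none had more than about 11.2 fragments.

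The 21 genes with a mean of at least 1 FPKM held 99.0% of the summed P450 FPKM outside *Cyp2c*. The mean over all samples ran from 1.14 FPKM for *Cyp4f17* to 70.2 FPKM for *Cyp2d34*, and 12 genes were at 10 FPKM or more. The highest 4, *Cyp2d34*, *Cyp4f40*, *Cyp4f14* and *Cyp3a13*, made up 53.9% of the sum. The same 21 genes passed the filter for testing (at least 1 FPKM in at least 3 samples), 19 of them with at least 1 FPKM in every sample, and all 21 had a mean of at least 1 FPKM in both genotypes.

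**Figure D1:**
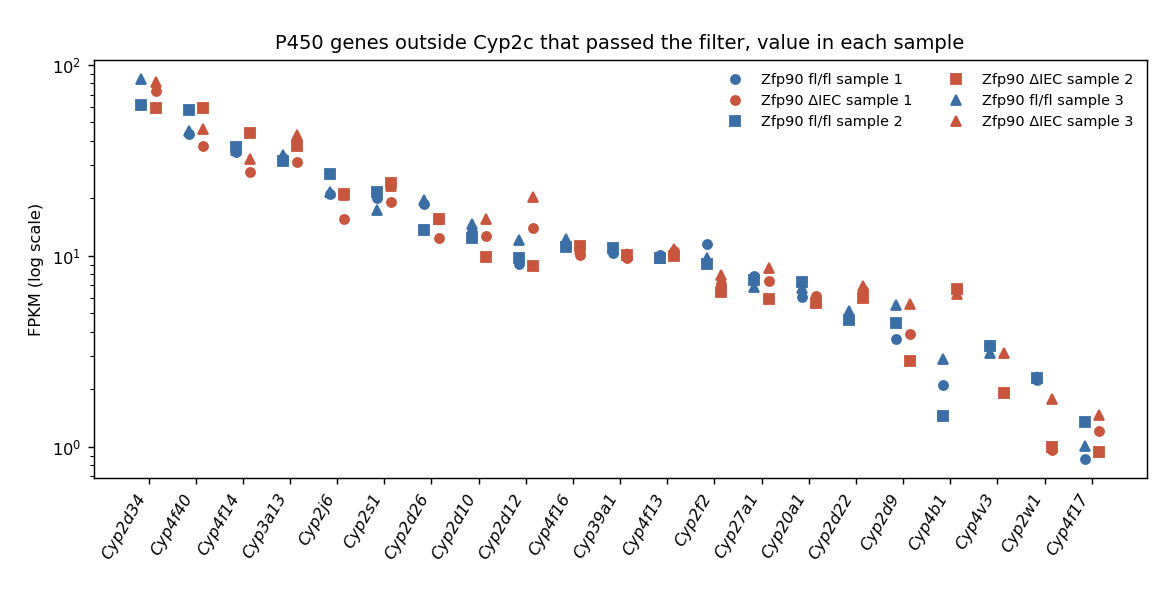
FPKM on a log scale of the 21 P450 genes outside *Cyp2c* that passed the filter, ordered by mean level, with 1 symbol for each of 3 *Zfp90* fl/fl samples (blue) and 3 *Zfp90* ΔIEC samples (red). The symbols of the 2 genotypes overlap for most genes, while those of *Cyp4b1* lie apart, at 1.44 to 2.87 against 6.30 to 6.71 FPKM.

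Family by family, the summed level overlapped between the genotypes in families 2, 3, 4, 20 and 27, while *Cyp39a1* and the sum of the *Cyp2j* genes were lower in every *Zfp90* ΔIEC sample. All 78 genes together summed to 332.7, 349.0 and 364.2 FPKM in the *Zfp90* fl/fl samples and 318.9, 351.3 and 382.0 FPKM in the *Zfp90* ΔIEC samples, with means of 348.6 ± 15.7 and 350.7 ± 31.6 FPKM (SD, n = 3). Sums were described and not tested. Family 2 held 50.7% of the *Zfp90* fl/fl sum and 49.8% of the *Zfp90* ΔIEC sum, at 176.9 ± 15.1 and 174.7 ± 23.0 FPKM. Family 4 was at 113.2 ± 8.30 and 114.1 ± 19.2 FPKM, and family 3, nearly all of it *Cyp3a13*, at 32.6 ± 1.22 and 37.5 ± 6.17 FPKM. Family 27 was at 7.48 ± 0.513 and 7.42 ± 1.38 FPKM, and family 20 at 6.72 ± 0.611 and 5.87 ± 0.270 FPKM. Family 39, which is *Cyp39a1* alone, was at 10.8 ± 0.333 and 10.0 ± 0.258 FPKM without overlap.

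Families 1, 7, 8, 11, 17, 19, 21, 26 and 46 each stayed under 0.1 FPKM in sum in every sample. Among these, family 11 did not overlap, at 0.0534, 0.0436 and 0.0308 FPKM in *Zfp90* fl/fl and 0.00763, 0.00726 and 0.0261 FPKM in *Zfp90* ΔIEC samples. All of it came from *Cyp11a1*, which starts steroid synthesis and rested here on fewer than 3 fragments a sample. Within family 2, the *Cyp2j* genes summed to 21.8, 27.4 and 22.0 FPKM in *Zfp90* fl/fl and 15.9, 21.5 and 21.4 FPKM in *Zfp90* ΔIEC samples, so that the lowest *Zfp90* fl/fl sample lay just above the highest *Zfp90* ΔIEC sample. The *Cyp2c* genes, by contrast, summed to 383.6 ± 17.1 and 1099 ± 225 FPKM without overlap. Of that, *Cyp2c55* rose from 207.0 to 912.2 FPKM in mean, while *Cyp2c65* (118.2 and 127.9 FPKM) and *Cyp2c68* (51.6 and 52.9 FPKM) overlapped. *Cyp2c66* was at 3.62 and 2.29 FPKM, and *Cyp2c69* at 2.15 and 2.88 FPKM.

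**Figure D2:**
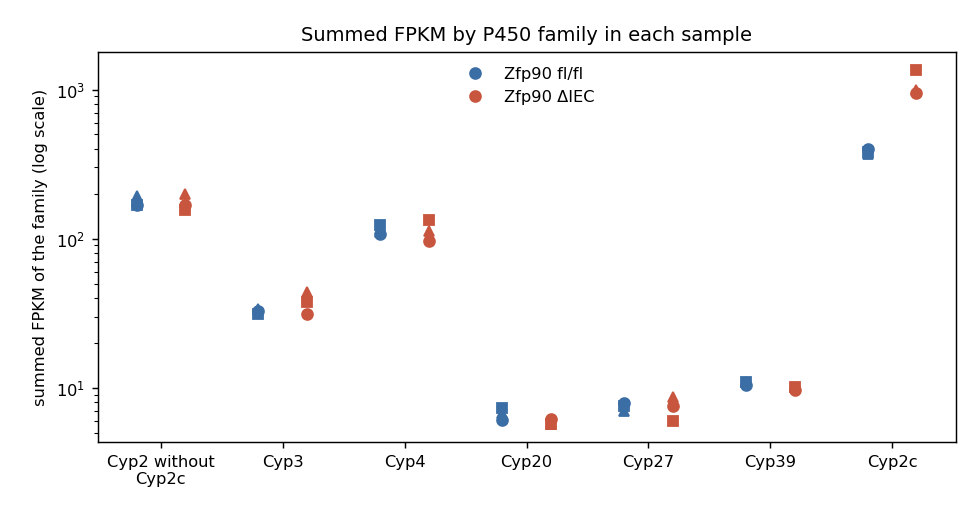
Summed FPKM on a log scale of the P450 families with at least 1 FPKM in every sample, and of *Cyp2c* for comparison, in each of 3 *Zfp90* fl/fl (blue) and 3 *Zfp90* ΔIEC samples (red; circle, square and triangle for samples 1, 2 and 3). Family sums outside *Cyp2c* lie close together, whereas *Cyp2c* has means of 383.6 and 1099 FPKM.

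Gene by gene, 1 of the 21 tested P450 genes passed the threshold of an adjusted p under 0.05 (limma on log2(FPKM + 1), Benjamini-Hochberg adjustment over all 11564 genes tested), and it was higher in *Zfp90* ΔIEC samples. Of all genes tested, 0.199% passed, 0.0692% in the higher and 0.13% in the lower direction. At an unadjusted p under 0.05, 2 P450 genes were higher and 3 were lower, which is 23.8% of the 21 beside 14.6% of all genes tested (6.56% higher and 8.09% lower). The genotypes did not overlap for 2 genes that were higher and 4 that were lower, 28.6% of the 21 beside 21.3% of all genes tested (8.73% higher and 12.6% lower). The log2 fold change was above 0 for 8 genes and below 0 for 13, with a median of -0.08 for the P450 genes and -0.02 for all genes tested, of which 57.2% were below 0. The median coefficient of variation among the 21 was 9.09% in *Zfp90* fl/fl and 16.1% in *Zfp90* ΔIEC samples, beside 6.88% and 8.31% over all genes tested. These log2 fold changes are on the log2(FPKM + 1) scale, which understates the change of low genes.

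**Figure D3:**
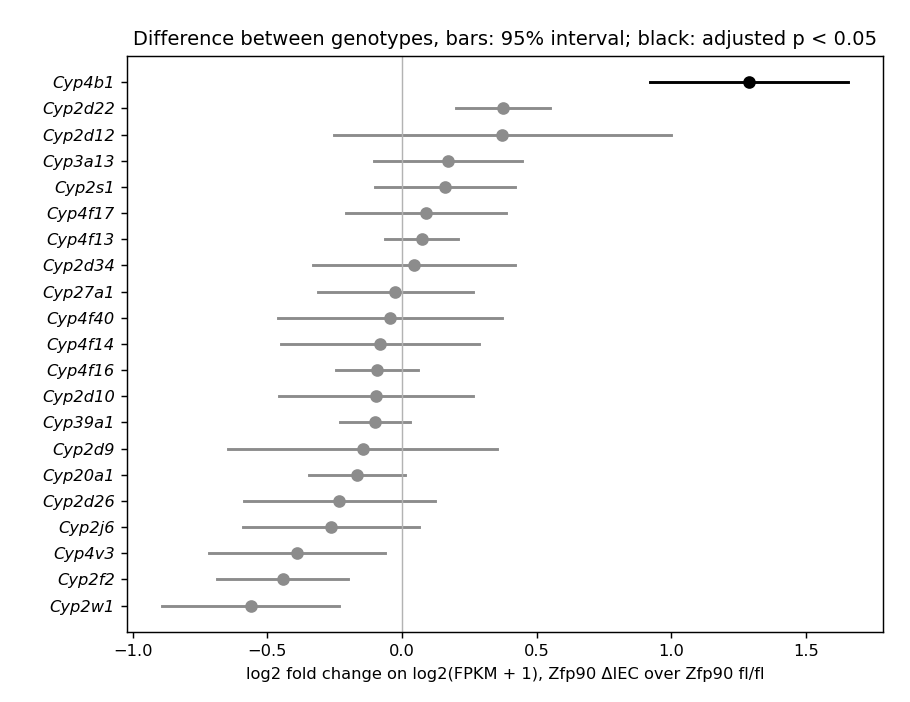
Log2 fold change on the log2(FPKM + 1) scale, *Zfp90* ΔIEC over *Zfp90* fl/fl, with its 95% interval from limma, for the 21 P450 genes that passed the filter. *Cyp4b1*, in black at 1.29, is the gene past the threshold, and the other 20 are in grey.

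Fatty acids are the main substrates of family 4. *Cyp4b1*, which hydroxylates fatty acids and turns some plant and aromatic toxins into reactive products, rose in the *Zfp90* ΔIEC mice. Its values were 2.10, 1.44 and 2.87 FPKM in *Zfp90* fl/fl samples 1, 2 and 3 (about 103, 77 and 155 fragments) and 6.59, 6.71 and 6.30 FPKM in *Zfp90* ΔIEC samples 1, 2 and 3 (about 345, 359 and 335 fragments). All 3 *Zfp90* ΔIEC samples lay above every *Zfp90* fl/fl sample, and they lay closer to each other than the *Zfp90* fl/fl samples did. The mean was 2.14 ± 0.713 against 6.53 ± 0.209 FPKM, a ratio of 3.06, and the log2 fold change was 1.29 (SE 0.156, 95% interval 0.92 to 1.66, adjusted p = 0.0434 from limma). It ranked 20 by p among the genes tested. Over 12 alternatives the log2 fold change stayed between 1.12 and 1.62, but the adjusted p ranged from 0.0162 to 0.134 and passed in 4. It passed in 1 of the 6 fits that leave out a sample, the one without *Zfp90* fl/fl sample 3, the highest of its group. No 150-base stretch of its longest coding transcript recurred in a transcript of another gene.

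*Cyp4v3*, a fatty acid hydroxylase best known from the retina, was at 3.40, 3.39 and 3.09 FPKM in *Zfp90* fl/fl and 1.93, 1.92 and 3.11 FPKM in *Zfp90* ΔIEC samples. *Zfp90* ΔIEC sample 3 lay within the *Zfp90* fl/fl range, the other two below it. The log2 fold change was -0.39 (SE 0.138, limma adjusted p = 0.274), and 4.5% of its 150-base windows are shared with *Gm45753*, so that its level is less certain.

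The *Cyp4f* genes, hydroxylases of leukotrienes, long fatty acids and vitamins E and K, made up most of family 4. *Cyp4f40* was at 43.5, 57.8 and 45.0 FPKM in *Zfp90* fl/fl and at 37.7, 59.2 and 46.2 FPKM in *Zfp90* ΔIEC samples. *Cyp4f14* was at 35.0, 37.1 and 35.7 FPKM and at 27.4, 43.9 and 32.3 FPKM. In both genes sample 2 was the highest of each genotype. The log2 fold changes were -0.04 and -0.08, with 95% intervals from -0.46 to 0.37 and from -0.45 to 0.29. *Cyp4f16*, *Cyp4f13* and *Cyp4f17* had means between 1.07 and 11.5 FPKM in either genotype and log2 fold changes from -0.09 to 0.09 (0.15 for *Cyp4f17* with a pseudocount of 0.1), and 2.8% of the windows of *Cyp4f16* are shared with *Cyp4f37*. The *Cyp4f* sum was 107.6 ± 8.78 and 105.1 ± 19.2 FPKM. *Cyp4f18*, a leukotriene hydroxylase known from neutrophils, was at 0.0314, 0.180 and 0.129 FPKM in *Zfp90* fl/fl and at 0.0198, 0.0649 and 0.0193 FPKM in *Zfp90* ΔIEC samples, with overlap. The *Cyp4a* genes, targets of Ppara in liver, summed to at most 0.0336 FPKM in any sample.

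Family 2 outside *Cyp2c* was led by the *Cyp2d* genes, which lie together on chromosome 15 and oxidise many drugs. *Cyp2d34*, the highest P450 gene outside *Cyp2c*, was at 61.5, 61.6 and 84.6 FPKM in *Zfp90* fl/fl and at 73.2, 59.4 and 81.2 FPKM in *Zfp90* ΔIEC samples. Its log2 fold change was 0.04 (95% interval -0.33 to 0.42, limma adjusted p = 0.917). The groups overlapped. *Cyp2d26* was at 18.8, 13.7 and 19.6 FPKM and at 12.4, 15.6 and 15.7 FPKM. *Cyp2d10* was at 13.3, 12.4 and 14.7 FPKM and at 12.7, 9.84 and 15.6 FPKM, and *Cyp2d9* at 3.69, 4.44 and 5.56 FPKM and at 3.92, 2.80 and 5.60 FPKM. Both of these had an adjusted p above 0.7.

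*Cyp2d12* varied most within a genotype, at 9.12, 9.78 and 12.1 FPKM in *Zfp90* fl/fl and 13.9, 8.82 and 20.3 FPKM in *Zfp90* ΔIEC samples, and its log2 fold change of 0.37 had a 95% interval from -0.25 to 1.00. *Cyp2d22* was the *Cyp2d* gene whose genotypes did not overlap, at 4.66, 4.61 and 5.15 FPKM in *Zfp90* fl/fl and 6.61, 6.00 and 6.99 FPKM in *Zfp90* ΔIEC samples. Its mean was 4.81 ± 0.298 against 6.53 ± 0.501 FPKM, with a log2 fold change of 0.37 (SE 0.0735, 95% interval 0.20 to 0.55, limma adjusted p = 0.0995). The adjusted p ranged from 0.0942 to 0.263 over 12 alternatives and passed in none.

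All 6 *Cyp2d* genes that passed the filter were highest in sample 3 of *Zfp90* fl/fl and also in sample 3 of *Zfp90* ΔIEC, a pattern chosen after the values were seen. The order of samples 1 and 2 was not the same for all 6 genes in either genotype. Of the 21 P450 genes, 9 had their highest value in sample 3 of both genotypes (42.9%), beside 9.29% of the 11564 genes tested. These 9 include the 6 *Cyp2d* genes that led to the choice of sample 3. For sample 1 the share was 0% of the 21 beside 16.7% of all genes tested, and for sample 2 it was 19% beside 15.4%. The labels do not say that a shared number marks a shared litter, cage or day. The estimated depth of these samples, 28.5 and 28.1 M fragments, was within the range of the others in *Zfp90* ΔIEC and the highest in *Zfp90* fl/fl. The share of 150-base windows found in other genes was 6.4% for *Cyp2d10*, 1.5% for *Cyp2d9*, 0.6% for *Cyp2d12* and none for the other 3. As with *Cyp4v3*, the level of *Cyp2d10* is less certain for this. The *Cyp2d* sum was 119.9 ± 19.1 and 123.6 ± 21.5 FPKM.

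**Figure D4:**
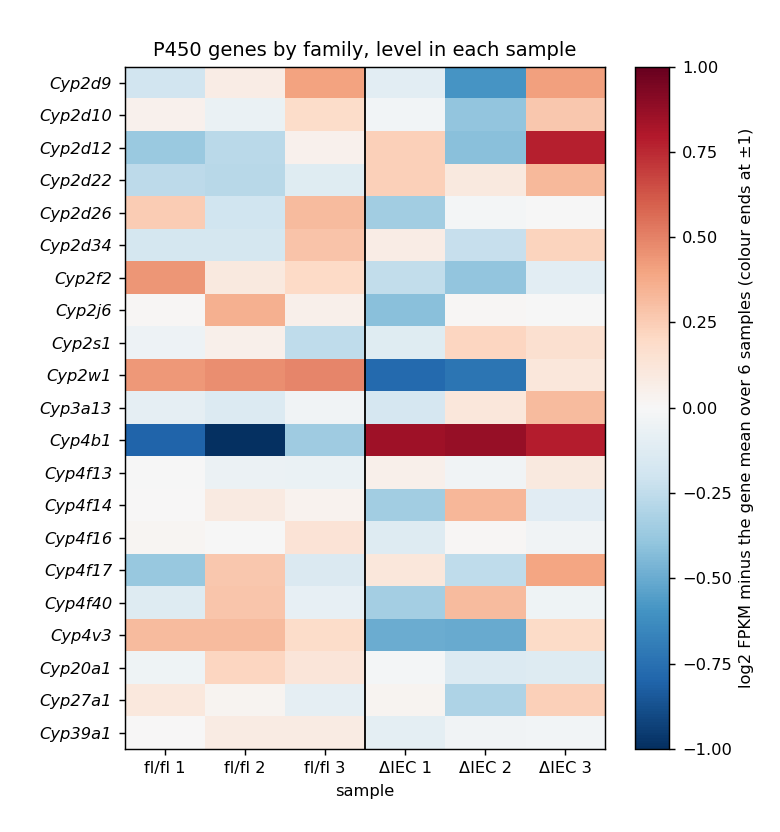
Log2 FPKM of each of the 21 P450 genes in each sample minus the gene's mean log2 FPKM over the 6 samples, ordered by family, with *Zfp90* fl/fl samples left and *Zfp90* ΔIEC samples right of the line. Sample 3 is the highest of its genotype in all 6 *Cyp2d* rows on both sides, and the *Cyp4b1* row is blue on the left and red on the right.

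Outside *Cyp2d*, the members of family 2 that passed the filter were *Cyp2j6*, *Cyp2s1*, *Cyp2f2* and *Cyp2w1*, all below *Cyp2d34* in mean level. *Cyp2f2*, known from the club cells of the lung, where it activates naphthalene, was at 11.6, 9.11 and 9.76 FPKM in *Zfp90* fl/fl and 7.17, 6.48 and 7.93 FPKM in *Zfp90* ΔIEC samples. All *Zfp90* ΔIEC samples were below all *Zfp90* fl/fl samples, with means of 10.1 ± 1.27 and 7.19 ± 0.725 FPKM and a log2 fold change of -0.44 (SE 0.103, limma adjusted p = 0.131). *Cyp2w1*, known from the fetal colon and from colon tumours, was at 2.23, 2.28 and 2.32 FPKM in *Zfp90* fl/fl and 0.964, 0.996 and 1.78 FPKM in *Zfp90* ΔIEC samples (about 87 to 100 and 40 to 76 fragments). Again the genotypes did not overlap, and *Zfp90* ΔIEC sample 3 lay nearest to the *Zfp90* fl/fl samples. The log2 fold change was -0.56 (SE 0.139, 95% interval -0.89 to -0.23, limma adjusted p = 0.139). The ratio of the means was 0.549, and with a pseudocount of 0.1 in place of 1 the log2 fold change was -0.87. Neither gene passed under any of 12 alternatives, where the adjusted p was 0.132 to 0.289 for *Cyp2f2* and 0.0525 to 0.330 for *Cyp2w1*.

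*Cyp2j6*, of a subfamily that makes epoxides from arachidonic acid, was at 21.04, 26.8 and 21.6 FPKM in *Zfp90* fl/fl and 15.6, 21.01 and 20.9 FPKM in *Zfp90* ΔIEC samples, a log2 fold change of -0.26 (95% interval -0.59 to 0.06). The lower edge of one genotype and the upper edge of the other nearly met. *Cyp2s1*, an extrahepatic gene that Ahr can induce, was at 20.1, 21.6 and 17.5 FPKM and at 19.1, 24.2 and 23.2 FPKM, a log2 fold change of 0.16 (95% interval -0.10 to 0.42).

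**Figure D5:**
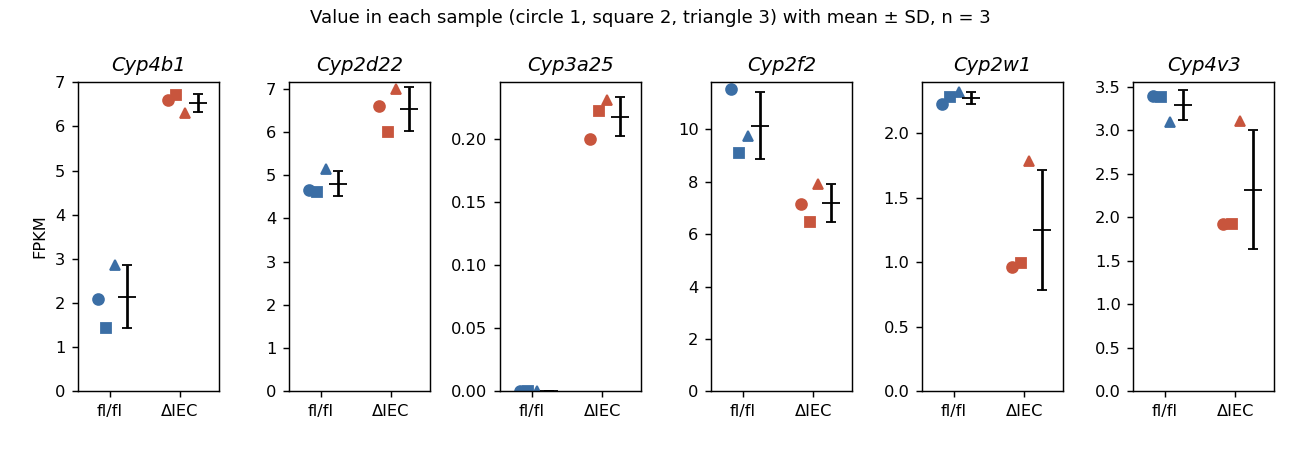
FPKM in each sample, with the mean and SD (n = 3) beside the points, for the P450 genes with an unadjusted p under 0.05 and a mean of at least 0.1 FPKM, each panel on its own linear axis from 0. *Cyp4b1*, *Cyp2d22* and *Cyp3a25* are higher and *Cyp2f2* and *Cyp2w1* lower in *Zfp90* ΔIEC samples (red) without overlap, while *Cyp4v3* overlaps through *Zfp90* ΔIEC sample 3 at 3.11 FPKM.

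In family 3, which oxidises drugs, steroids and bile acids, *Cyp3a13*, the family's main gene here, was at 32.5, 31.5 and 33.9 FPKM in *Zfp90* fl/fl and 30.9, 37.5 and 43.1 FPKM in *Zfp90* ΔIEC samples. The log2 fold change was 0.17 (95% interval -0.10 to 0.44, limma adjusted p = 0.549). *Cyp3a25* was listed at 0 in all 3 *Zfp90* fl/fl samples and at 0.200, 0.222 and 0.231 FPKM, about 11.1, 12.6 and 13.0 fragments, in the *Zfp90* ΔIEC samples. It lay below the filter and passed through 1 genotype in the test without a filter (27805 genes), with an adjusted p of 0.0199 from limma, where 0.0539% of genes passed. No fold is given against a group listed at 0. In that test 7 of the 55 P450 genes above 0 in some sample had an unadjusted p under 0.05, beside 9.96% of all genes, and *Cyp3a25* was the member that passed after adjustment. Its spread in *Zfp90* fl/fl samples is 0 because all were listed at 0. Of the 12 alternatives, 2 concern the filter and leave its fit as it was. It passed in 3 of the other 10, and in none of the 6 that leave out a sample.

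The enzymes of sterols and of vitamins D and A showed no difference past the threshold. *Cyp27a1*, the mitochondrial enzyme that hydroxylates the sterol side chain, was at 7.85, 7.45 and 6.88 FPKM in *Zfp90* fl/fl and 7.43, 5.91 and 8.60 FPKM in *Zfp90* ΔIEC samples. *Cyp39a1*, which acts on oxysterols on the way to bile acids, was at 10.4, 11.0 and 11.0 FPKM and at 9.71, 10.1 and 10.2 FPKM. Its groups did not overlap, and its log2 fold change was small, -0.10 (95% interval -0.23 to 0.03, limma adjusted p = 0.447). *Cyp20a1*, whose substrate is not known, was at 6.07, 7.29 and 6.80 FPKM and at 6.18, 5.69 and 5.74 FPKM, with a log2 fold change of -0.17 (95% interval -0.35 to 0.01).

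*Cyp24a1*, which breaks down active vitamin D, was at 0.947, 0.669 and 0.577 FPKM in *Zfp90* fl/fl and 0.755, 0.851 and 1.20 FPKM in *Zfp90* ΔIEC samples. *Cyp2r1*, which makes the circulating form of vitamin D, was at 0.771, 0.900 and 0.611 FPKM and at 0.767, 0.306 and 0.589 FPKM. *Cyp27b1*, which makes the active form, stayed between 0.0527 and 0.143 FPKM. The groups overlapped for all 3 genes. The *Cyp26* genes, which clear retinoic acid, summed to at most 0.0766 FPKM in any sample, and *Cyp1a1*, the best known target of Ahr, to at most 0.0789 FPKM, about 5.9 fragments.

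The genes that work with P450s were read from the same fit. None of the 7 lists had a gene past the threshold, beside the 0.199% of all genes tested. Among 10 redox partners, all of which passed the filter, 9 had a log2 fold change above 0 (median 0.10), where 57.2% of all genes tested were below 0. *Por* and *Pgrmc1* had an unadjusted p under 0.05, as did 14.6% of all genes tested. *Por*, the reductase of microsomal P450s, was at 20.1, 23.1 and 20.8 FPKM in *Zfp90* fl/fl and 26.1, 30.9 and 25.3 FPKM in *Zfp90* ΔIEC samples, without overlap (log2 fold change 0.35, SE 0.0917, limma adjusted p = 0.162). *Pgrmc1*, a haem-binding partner of P450s, had a log2 fold change of 0.16 (limma adjusted p = 0.203). *Cyb5b*, a cytochrome b5, was the highest of the list, at 90.9 ± 1.23 and 97.7 ± 5.04 FPKM. Among 12 genes of haem synthesis and turnover, 8 were above 0 (median 0.07), and none had an unadjusted p under 0.05. *Alas1*, the first and rate-setting step, was the highest of these, at 16.99 to 19.7 FPKM in *Zfp90* fl/fl and up to 23.7 FPKM in *Zfp90* ΔIEC samples.

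Of 20 ligand-activated regulators and their partners, 16 passed the filter, and 13 of these had a log2 fold change below 0, with a median of -0.12 beside -0.02 for all genes tested. *Ahr*, the receptor of dioxin and of tryptophan products, was at 4.71, 3.89 and 3.72 FPKM in *Zfp90* fl/fl and 3.62, 3.10 and 3.18 FPKM in *Zfp90* ΔIEC samples, a log2 fold change of -0.24 (SE 0.0928, limma adjusted p = 0.305). It was the one regulator with an unadjusted p under 0.05, beside 14.6% of all genes tested. *Hnf4a*, a nuclear receptor of gut and liver epithelium, was the highest at 157, 166 and 157 FPKM and 142, 160 and 155 FPKM.

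Target genes of these receptors outside the P450s were taken in 4 lists. Of 9 Ppara targets, 7 passed the filter, and all 7 had a log2 fold change above 0 (median 0.13), beside 57.2% of all genes tested below 0. An unadjusted p under 0.05 was found for 3 of the 7, all higher, beside 6.56% of all genes tested in that direction. *Pdk4*, which holds back glucose oxidation, had a log2 fold change of 0.58 (limma adjusted p = 0.131), and *Ehhadh*, of peroxisomal fat oxidation, had 0.21 (limma adjusted p = 0.243). Of 5 Ahr targets, 3 passed the filter, 1 of them with an unadjusted p under 0.05, beside 14.6% of all genes tested. *Ugt1a6a*, a glucuronosyltransferase, was at 21.7, 26.2 and 25.01 FPKM against 32.4, 33.4 and 30.6 FPKM, without overlap (log2 fold change 0.39, limma adjusted p = 0.112), and *Nqo1*, the highest of the list, overlapped between 32.7 and 52.9 FPKM.

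Of 3 Vdr targets, 2 passed the filter, both with an unadjusted p under 0.05 and on opposite sides of 0. Of all genes tested, 14.6% had such a p. *S100g*, a calcium-binding protein of the absorptive cell, was at 16.8, 9.26 and 36.8 FPKM in *Zfp90* fl/fl and 65.2, 68.9 and 79.2 FPKM in *Zfp90* ΔIEC samples. Its log2 fold change was 1.92 (SE 0.422, limma adjusted p = 0.121), and it passed the threshold without *Zfp90* fl/fl sample 3. *Trpv6*, the calcium channel of the same cells, was at 13.7, 11.9 and 9.74 FPKM and 7.63, 7.27 and 9.41 FPKM, a log2 fold change of -0.48 (limma adjusted p = 0.183). Of 9 genes of retinoic acid handling and response, 3 passed the filter. The retinal dehydrogenase *Aldh1a1* was the highest (log2 fold change 0.32, limma adjusted p = 0.313), and the retinol-binding protein *Rbp2* was at 0.36 (limma adjusted p = 0.320). Both had an unadjusted p under 0.05, again beside 14.6% of all genes tested.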

How the data were processed

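RNA-seq of colonic epithelium was made by the authors from libraries sequenced as paired ends. The authors deposited 1 file of FPKM per sample with Ensembl gene IDs. The submitters' processing notes name build mm9, STAR 2.5 and Cuffnorm, while the methods name other tools and a human build. FPKM is normalized for length and depth, and reads of near-identical genes may be split between them. Samples were grouped by genotype from their titles.

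Of 52550 IDs, 52403 had a symbol in GENCODE vM21. From the deposited FPKM, log2(FPKM + 1) was tested with limma 3.58.1 (R 4.3.3, intensity trend, Benjamini-Hochberg) over the 11564 genes that reached 1 FPKM in 3 or more samples. Genes below the filter take their values from the test without it (27805 genes). Tables used Python 3.11.15 and pandas 2.3.3. The test was tried on simulated data. The members, the lists and the tests were chosen with earlier results of these data known. Every member with a mean of at least 1 FPKM was named, and every lower one with an unadjusted p under 0.05 and a mean of at least 0.1 FPKM. In each list, genes with an unadjusted p under 0.05 (up to 4) and the highest were named. The result of 1 gene that this rule names is not reported here. Other members were named after their values were seen, for what they are known to do. Alternatives were a pseudocount of 0.1, no filter, a filter on a mean of 1 FPKM (11501 genes), quantile normalization, median ratio scaling, the replicate number as a block and leaving out each sample.

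The depth was estimated from single-transcript genes, where 68.3% to 75.4% of the low values lay within 0.1 of a whole number of fragments. Promoter letters came from RefSeq (GRCm38.p6), and 59 of the 78 genes had an entry.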

Additional observations from a re-analysis of the deposited data

How the results depend on the processing

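Of the 22 P450 genes named by rule, 16 kept the sign of their log2 fold change in all 12 alternatives. The other 6, none of them past the threshold, changed sign when 1 sample was left out. With a sample left out, the log2 fold change ran from -0.0537 to 0.196 for *Cyp2d34*, -0.208 to 0.110 for *Cyp4f40*, -0.264 to 0.0671 for *Cyp4f14*, -0.246 to 0.0609 for *Cyp2d10*, -0.135 to 0.102 for *Cyp27a1* and -0.349 to 0.0488 for *Cyp2d9*. The number of P450 genes past the threshold, 1 as reported, became 0 with a pseudocount of 0.1 (5 with an unadjusted p under 0.05 from limma) and 0 to 1 with a sample left out. Without a filter it was 1, and the gene was *Cyp3a25* in place of *Cyp4b1*, whose adjusted p was then 0.123 with more genes tested. The number of Vdr targets past the threshold was 0 to 1 with a sample left out. Of all genes tested, 23 passed, beside 15 without a filter, 13 with a pseudocount of 0.1 and 10 to 21 with a sample left out.

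With the replicate number as a block, 0 P450 genes passed in limma (6 with an unadjusted p under 0.05, the adjusted p of *Cyp4b1* being 0.0669 and that of *Cyp3a25*, without a filter, 0.246), while 47 of all genes tested passed. Samples with the same number had correlations of their deviations of 0.194, 0.11 and 0.0782, and every sample correlated best with its own number. The labels name no shared litter, cage or day, and the main test took the samples as unpaired. A cut of 0.1, which 1 of the same-number correlations does not pass, is no test. Whether samples with the same number are paired was not tested. The median log2 difference of all genes tested was -0.02 as deposited, -0.01 under quantile normalization and -0.00401 under median ratio scaling.

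Genes under 1 FPKM rest on few fragments, and 3 samples a genotype leave room for differences of up to the printed intervals.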
